A study of Mus musculus with 12 samples.

Results

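Protocadherins are calcium-dependent adhesion proteins of the cadherin superfamily, and their genes were taken as every gene of the hippocampal expression table whose name starts with Pcdh, which gave 71 of 24318 genes. The clustered genes numbered 59 (Pcdha, Pcdhb and Pcdhg) and the non-clustered genes 12. In the separate table of back-splice junctions, which join a downstream to an upstream point of a transcript as a circular RNA does, 8 of 7025 intervals were named after a protocadherin. The samples were hippocampus of 7-month-old mice of 2 genotypes, wild type (WT) and 5xFAD, with 3 libraries of each genotype in each of 2 library types, 12 in all. The libraries labelled CG came from RNA depleted of ribosomal RNA and carry expression as FPKM (fragments scaled to transcript length and to the mapped fragments of the library). The libraries labelled AT came from RNA that was A-tailed and digested with RNase R, which removes most linear RNA and leaves circles, and carry the junction signal. 5xFAD mice carry transgenes with familial Alzheimer's disease mutations, driven by Thy1 regulatory sequence and so expressed mainly in neurons. The strain of the WT mice was not given in the sources used here, and the labels do not say that the libraries of a group came from separate animals. P-values therefore measure the spread between these libraries, which may be technical.

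In the clustered families, each variable exon carries its own promoter and codes for a whole ectodomain, and a neuron expresses a small combination of them. The alpha and gamma variable exons are each spliced to constant exons shared within their cluster, while each beta gene is a single exon with no constant part. CTCF and cohesin bring a distant enhancer to the promoter that is used, and the ectodomains bind the same isoform on an opposing membrane, through which neurites of one cell recognise each other. The C-type genes at the ends of the alpha and gamma clusters are used more uniformly across neurons. The non-clustered delta protocadherins act in axon growth, synapse formation and cell sorting, and several of them recruit actin regulators to the membrane.

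Promoter sequence is shown for 3 non-clustered genes that the junction and expression results below turn on. RefSeq windows (GRCm38.p6) from 250 bases before to 50 bases after an annotated start were found for 9 of the 71 genes, none of them clustered, and each gene's window belongs to 1 annotated start. The Pcdh17 window, at chr14:84443313-84443612 on the plus strand, belongs to the host of the most abundant protocadherin junction and held the most CpG dinucleotides, 26, more than 83.1% of the 32851 windows of the same length. The Pcdh20 window, at chr14:88471347-88471646 on the minus strand, belongs to the non-clustered gene with the largest difference between genotypes and held the fewest, 4. Over all windows the median was 7. Capitals mark CG in these 2 sequences, which are written 5′ to 3′.
Pcdh17: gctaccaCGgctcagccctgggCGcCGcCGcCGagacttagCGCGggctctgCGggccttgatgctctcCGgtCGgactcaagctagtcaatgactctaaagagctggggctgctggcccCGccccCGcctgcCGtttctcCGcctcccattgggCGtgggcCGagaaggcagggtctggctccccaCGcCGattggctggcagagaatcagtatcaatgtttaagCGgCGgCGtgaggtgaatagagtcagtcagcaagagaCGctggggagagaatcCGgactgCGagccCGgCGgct
Pcdh20: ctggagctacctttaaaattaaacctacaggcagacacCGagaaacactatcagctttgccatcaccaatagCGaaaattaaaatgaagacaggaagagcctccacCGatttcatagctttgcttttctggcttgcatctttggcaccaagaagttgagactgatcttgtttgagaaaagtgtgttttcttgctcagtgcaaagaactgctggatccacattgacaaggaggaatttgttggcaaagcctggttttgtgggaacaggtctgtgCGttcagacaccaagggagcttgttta
The Pcdh15 window, at chr10:73821617-73821916 on the plus strand, belongs to the host of 3 junction intervals, and capitals mark TATAAA, which starts at base 218 from the 5′ end of the window.
Pcdh15: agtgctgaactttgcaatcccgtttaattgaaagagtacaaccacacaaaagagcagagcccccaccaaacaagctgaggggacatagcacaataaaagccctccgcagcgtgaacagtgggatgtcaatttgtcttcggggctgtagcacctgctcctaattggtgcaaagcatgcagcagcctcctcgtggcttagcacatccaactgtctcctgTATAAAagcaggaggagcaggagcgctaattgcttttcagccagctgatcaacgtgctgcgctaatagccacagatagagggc
TATAAA was searched on both strands and was found in 2 of the 9 windows (Pcdh15 and Pcdh8) and in 13.6% of all windows. CCCTC, a short piece of the CTCF motif, was found on either strand in 7 of the 9 and in 66.0% of all windows.

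Thy1 served as a check of the labels, because the transgenes carry its regulatory sequence. Its level was 296, 308 and 340 FPKM in WT, 1136 and 1172 FPKM in 5xFAD replicates 1 and 2, but 305 FPKM in the library labelled 5xFAD replicate 3. Microglial marker genes, summed over 5 genes, went the same way, at 61.4 to 74.7 FPKM in WT, 271 and 247 FPKM in 5xFAD replicates 1 and 2 and 67.7 FPKM in the library labelled replicate 3. Differences in expression are therefore given from all 6 CG libraries and again without that library, called the 5-library fit. The labels of the AT libraries were not checked in this way, and junction differences are given from all 6 AT libraries. Relative to WT replicate 1, the depth of the CG libraries was 0.794 to 1.16 as read from the steps between low values. The choroid plexus markers stood at 2838 FPKM in WT replicate 1, at 490 FPKM in the library labelled 5xFAD replicate 3 and at 41.5 to 72.4 FPKM in the other 4. The 7 neuronal markers summed to 2632 to 3005 FPKM, and the hippocampal subfield markers to 115 to 137 FPKM.

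All 71 protocadherin genes were above 0 in each of the 6 CG libraries, and together they made up 0.149% to 0.177% of the summed FPKM. The mean FPKM reached 0.5, the minimum for testing, in 69 of them, and Pcdh12 and Pcdhb1 fell below it. Levels followed the class. Median FPKM was 46.6 over the 4 delta-1 genes, 19.6 over the 5 delta-2 genes and 15.3 over the 5 C-type genes, against 7.13 for gamma A, 5.57 for gamma B, 3.52 for beta and 2.37 for alpha genes. The median over all genes tested was 9.18 FPKM, so the median delta and C-type gene lay above that of the tested genes and the other clustered classes below. Because RefSeq ends 13 of 14 alpha genes and 21 of 22 gamma genes within 10 bases of the median end of their cluster, reads from the shared constant exons could be credited to any of these genes. The division of such reads is not stated in the labels or headers, so differences in level among alpha or gamma genes are uncertain. The beta genes, of which no 2 neighbours overlap, do not share exons in this way, although they are close paralogs.

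**Figure D1:**
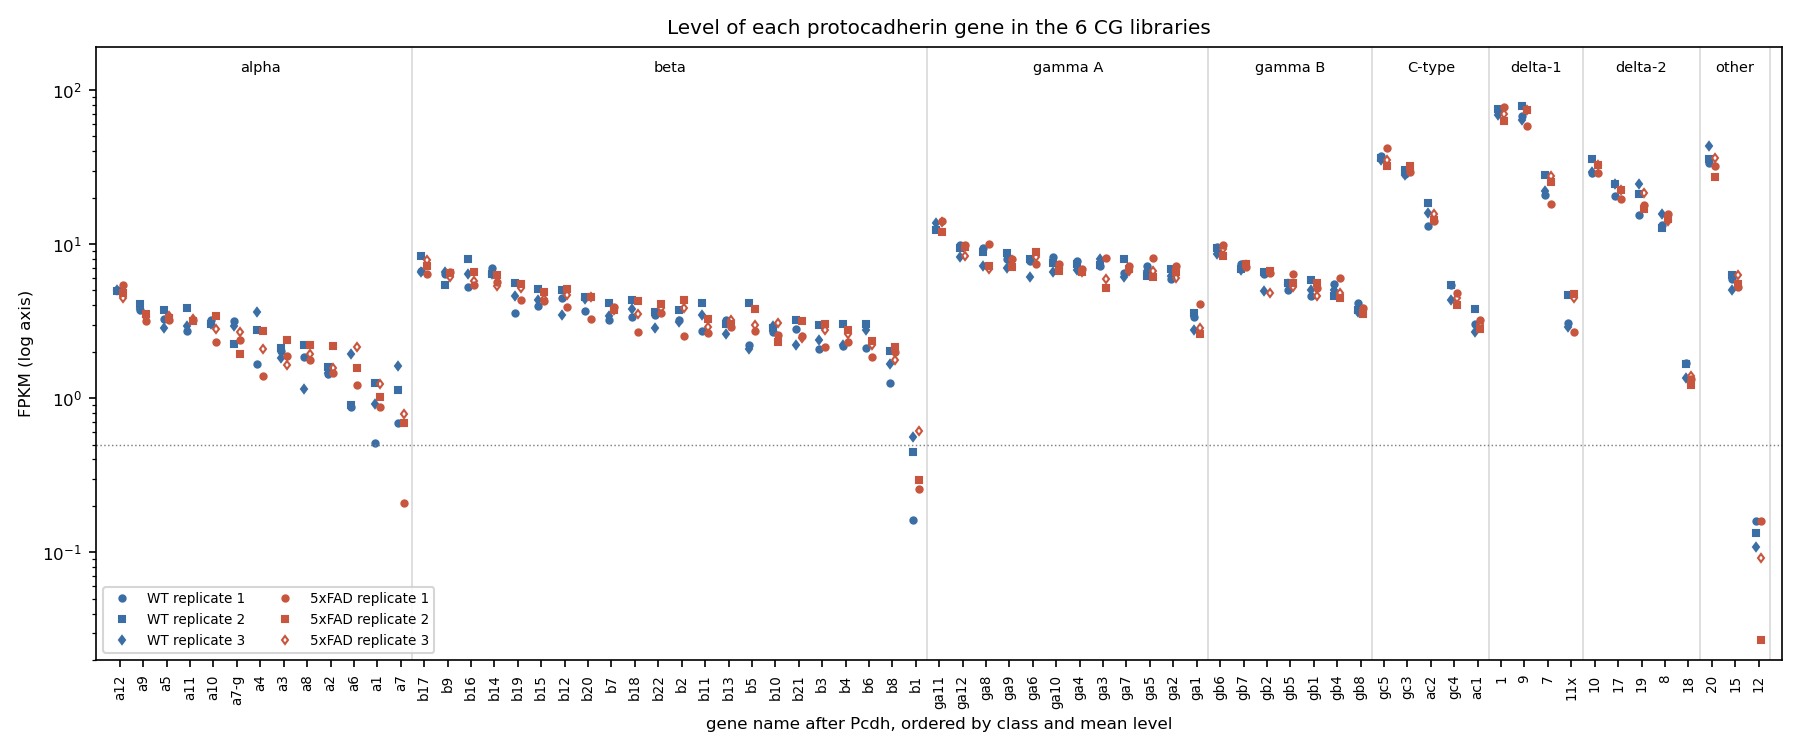
FPKM of the protocadherin genes by class in the 6 CG libraries, on a log axis, with 1 symbol per gene and library. Open symbols are the library labelled 5xFAD replicate 3, and the dotted line is the 0.5 FPKM minimum for testing. Delta-1 and C-type genes reach the highest levels (Pcdh1 71.3 and Pcdhgc5 36.3 FPKM on average), most alpha and beta genes lie under 5 FPKM, and the genotypes overlap in every class.

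The delta-1 genes held the highest single levels. Pcdh1, an adhesion protein also known from epithelia, stood at 72.5, 75.1 and 69.1 FPKM in WT and 77.5, 63.2 and 70.3 FPKM in 5xFAD, a log2 difference (log2 of FPKM + 1, 5xFAD minus WT) of -0.04 with a standard error (SE) of 0.10, and of -0.04 (SE 0.12) in the 5-library fit. Pcdh9 stood at 67.6, 78.8 and 64.0 FPKM in WT and 58.1, 74.1 and 74.5 FPKM in 5xFAD, with a log2 difference of -0.03 (SE 0.13), and of -0.09 (SE 0.15) in the 5-library fit. Pcdh1 and Pcdh9 were higher than 94.0% and 93.8% of the genes tested, and neither separated the genotypes. Pcdh7, which binds protein phosphatase 1, stood at 20.9, 27.9 and 21.9 FPKM in WT and 18.2, 25.2 and 27.8 FPKM in 5xFAD. The X-linked Pcdh11x was the lowest of the class, at 3.08, 4.67 and 2.92 FPKM in WT and 2.70, 4.73 and 4.45 FPKM in 5xFAD. Pcdh9, Pcdh7 and Pcdh11x were each lowest in 5xFAD replicate 1, below every WT library, though through the other 5xFAD libraries the groups overlapped.

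Among the delta-2 genes, Pcdh10, which recruits the WAVE actin regulator through Nckap1, stood at 29.1, 35.6 and 29.1 FPKM in WT and 29.0, 32.6 and 32.7 FPKM in 5xFAD. Pcdh17, which acts in the assembly of synapses and the extension of axons, stood at 20.6, 24.4 and 24.6 FPKM in WT and 19.5, 22.3 and 22.4 FPKM in 5xFAD, with a log2 difference of -0.11 (SE 0.11), and of -0.14 (SE 0.13) in the 5-library fit. Pcdh19, the gene of an X-linked epilepsy in humans, stood at 15.5, 21.3 and 24.6 FPKM in WT and 17.9, 16.96 and 21.5 FPKM in 5xFAD. All 3 overlapped between genotypes. Pcdh8, also called arcadlin, is induced by neuronal activity and draws N-cadherin from the synaptic membrane. It stood at 13.2, 12.6 and 15.8 FPKM in WT and 15.7, 14.6 and 14.0 FPKM in 5xFAD. Pcdh18 was the lowest delta-2 gene, at 1.22 to 1.69 FPKM over the 6 libraries, and without the library labelled 5xFAD replicate 3 its 2 remaining 5xFAD values (1.34 and 1.22 FPKM) lay just under the lowest WT value of 1.35 FPKM.

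Of the other non-clustered genes, Pcdh20 had the largest difference. It stood at 33.7, 35.4 and 43.6 FPKM in WT and 32.0, 27.3 and 36.3 FPKM in 5xFAD. With 6 libraries the groups overlapped and the log2 difference was -0.23 (SE 0.14, limma adjusted p = 1.00). Without the library labelled 5xFAD replicate 3 both remaining values lay under the lowest WT library, with a log2 difference of -0.33 (SE 0.14, limma adjusted p = 0.877, 95% interval -0.67 to 0.01). Pcdh20 did not pass the test in either fit. Pcdh15 forms the lower part of the tip link that opens the transduction channel of hair cells, and in brain it is known from oligodendrocyte precursors. It stood at 5.95, 6.26 and 5.03 FPKM in WT and 5.24, 5.51 and 6.26 FPKM in 5xFAD. The oligodendrocyte precursor markers, summed over 4 genes, were at 27.3 to 34.0 FPKM in WT and 29.3 to 30.7 FPKM in 5xFAD. Pcdh12, an endothelial protocadherin, stayed at 0.0271 to 0.1599 FPKM, where the 4 endothelial markers summed to 14.9 to 23.2 FPKM. In a piece of tissue, fewer cells of a type and less RNA per cell cannot be told apart.

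The clustered genes all lie on chromosome 18, and in the alpha and gamma clusters the last gene had the highest level. In the alpha cluster, mean FPKM went from 0.968 for Pcdha1, the first gene, to 15.3 for Pcdhac2, the last, and Spearman's rho between gene order and mean FPKM was 0.68 over 14 genes (0.60 over 12 genes without the C-types). In the beta cluster the first gene, Pcdhb1, was lowest at 0.388 FPKM, the peak was Pcdhb17 at 7.17 FPKM, and the last, Pcdhb22, stood at 3.58 FPKM, with a rho of 0.54 over 22 genes. In the gamma cluster the first gene, Pcdhga1, stood at 3.22 FPKM and the last, Pcdhgc5, at 36.3 FPKM, with a rho of 0.47 over 22 genes (0.51 over 19 without the C-types). These correlations describe genes measured in the same 6 libraries, and in the alpha and gamma clusters the genes also share exons.

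Of the 5 C-type genes, 3 stood above every alpha, gamma A or gamma B gene of their own cluster. Pcdhgc5, which binds GABA-A receptor subunits and appears late in postnatal brain, stood at 37.4, 36.3 and 35.1 FPKM in WT and 41.9, 31.9 and 35.1 FPKM in 5xFAD. Pcdhgc3, which promotes dendrite growth through Axin1, stood at 28.7, 30.1 and 27.9 FPKM in WT and 29.3, 32.0 and 30.3 FPKM in 5xFAD, with a log2 difference of 0.08 (SE 0.08), and the same size (SE 0.11) in the 5-library fit. Pcdhac2, needed for the even spread of serotonergic axons, stood at 13.1, 18.4 and 16.01 FPKM in WT and 14.0, 14.3 and 15.7 FPKM in 5xFAD. The genotypes overlapped for each of these 3 genes. Pcdhgc4, on which the survival of many interneurons depends, averaged 4.75 FPKM, under the gamma cluster median of 6.97 FPKM, and Pcdhac1 averaged 3.09 FPKM, under Pcdha12.

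Among the other alpha genes Pcdha12 was highest, at 5.01, 4.98 and 5.06 FPKM in WT and 5.44, 4.83 and 4.46 FPKM in 5xFAD. Pcdha5 stood at 3.25, 3.75 and 2.85 FPKM in WT and 3.21, 3.32 and 3.40 FPKM in 5xFAD. Pcdha9 stood at 3.72, 4.08 and 3.801 FPKM in WT and 3.16, 3.52 and 3.35 FPKM in 5xFAD, so that its groups did not overlap. Its log2 difference was -0.16 (SE 0.11, limma adjusted p = 1.00), and -0.17 (SE 0.13) in the 5-library fit, and it did not pass the test in either. Pcdha7 had the smallest p of all protocadherins. It stood at 0.691, 1.13 and 1.62 FPKM in WT and 0.209, 0.685 and 0.793 FPKM in 5xFAD, and the groups overlapped because 5xFAD replicate 3 lay above WT replicate 1. The log2 difference was -0.46 (SE 0.22, limma adjusted p = 1.00) with 6 libraries and -0.57 (SE 0.24, limma adjusted p = 0.836) without the library labelled 5xFAD replicate 3. Neither passed the test, and the difference without WT replicate 3 was -0.30 and without 5xFAD replicate 1 was -0.28. Pcdha7-g, which RefSeq lists as Gm38667, stood at 3.18, 2.25 and 2.92 FPKM in WT and 2.40, 1.94 and 2.69 FPKM in 5xFAD. It overlaps Pcdha7 in the annotation, so reads could be divided between the pair. The sum of both, formed after their values were seen, was 3.88, 3.38 and 4.55 FPKM in WT and 2.60, 2.63 and 3.48 FPKM in 5xFAD.

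The beta genes were low, with means from 0.388 to 7.17 FPKM. Pcdhb17 was highest, at 6.71, 8.33 and 6.54 FPKM in WT and 6.38, 7.19 and 7.88 FPKM in 5xFAD. Pcdhb9 stood at 6.41, 5.39 and 6.58 FPKM in WT and 6.60, 6.53 and 6.09 FPKM in 5xFAD. Pcdhb16 stood at 5.24, 8.03 and 6.43 FPKM in WT and 5.41, 6.60 and 5.73 FPKM in 5xFAD. For these highest genes the genotypes overlapped. Pcdhb14 was the beta gene whose groups did not overlap, at 7.00, 6.43 and 6.36 FPKM in WT and 5.69, 6.29 and 5.38 FPKM in 5xFAD, with a log2 difference of -0.16 (SE 0.10, limma adjusted p = 1.00), and of -0.12 (SE 0.12) in the 5-library fit. The gap between the nearest libraries was 6.36 against 6.29 FPKM, and the gene did not pass the test in either fit. Pcdhb6 stood at 2.13, 3.03 and 2.76 FPKM in WT and 1.84, 2.35 and 2.20 FPKM in 5xFAD. Pcdhb8 stood on the other side, at 1.26, 2.01 and 1.66 FPKM in WT and 1.99, 2.15 and 1.76 FPKM in 5xFAD. Both overlapped between genotypes, and Pcdhb1, at 0.161 to 0.613 FPKM, was too low to test.

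Among the gamma A and B genes, Pcdhga11 was highest, at 12.5, 12.3 and 13.7 FPKM in WT and 14.0, 11.9 and 13.9 FPKM in 5xFAD. Pcdhgb6 stood at 9.58, 9.38 and 8.59 FPKM in WT and 9.92, 8.37 and 9.29 FPKM in 5xFAD. Pcdhga12 stood at 9.90, 9.45 and 8.20 FPKM in WT and 9.81, 9.54 and 8.31 FPKM in 5xFAD. Their genotypes overlapped, as did those of the next gamma B genes, Pcdhgb7 (6.75 to 7.43 FPKM over the 6 libraries) and Pcdhgb2 (4.79 to 6.73 FPKM), and of the gamma A gene Pcdhga8 (6.92 to 10.01 FPKM). Pcdhgb8, the lowest of the gamma B genes on average, stood at 3.54 to 4.14 FPKM.

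With all 6 libraries, 0 of the 69 protocadherin genes tested passed limma's test at an adjusted p of 0.05, where 0.0069% of the 14500 genes tested did. At an unadjusted p under 0.05 the count was also 0, against 2.92% of all genes. Without the library labelled 5xFAD replicate 3 again 0 passed, against 1.2% of 14527 genes, and 1 gene (Pcdha7) had an unadjusted p under 0.05, against 5.91%. The lowest adjusted p was 1.00 with 6 libraries and 0.836 without that library. The design had few libraries. With 6 libraries Thy1 itself, at a log2 difference of 1.24 (SE 0.47), did not pass the test. Without the library labelled 5xFAD replicate 3, Thy1 had a log2 difference of 1.87 (SE 0.13) and a limma adjusted p of 0.000676. Thy1 was a ground for leaving that library out, so this pass does not show what the test can find.

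The sizes of difference that these libraries allow were narrow for most members. With 6 libraries the 95% interval lay within 2-fold of FPKM + 1 in either direction for all 69 genes tested. It lay within 1.5-fold of FPKM + 1 for 64 of them. The other 5 were Pcdh11x, Pcdha4, Pcdha6, Pcdha7 and Pcdhb5. Without the library labelled 5xFAD replicate 3 the interval lay within 2-fold for 68, Pcdha7 being the exception, and within 1.5-fold for 57. These intervals are for single genes on the log2 (FPKM + 1) scale, which understates the change of low genes such as the alpha genes near 1 FPKM. Pcdha7, for example, averaged 1.15 FPKM in WT and 0.562 FPKM in 5xFAD. The intervals do not show that the genotypes were alike.

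**Figure D2:**
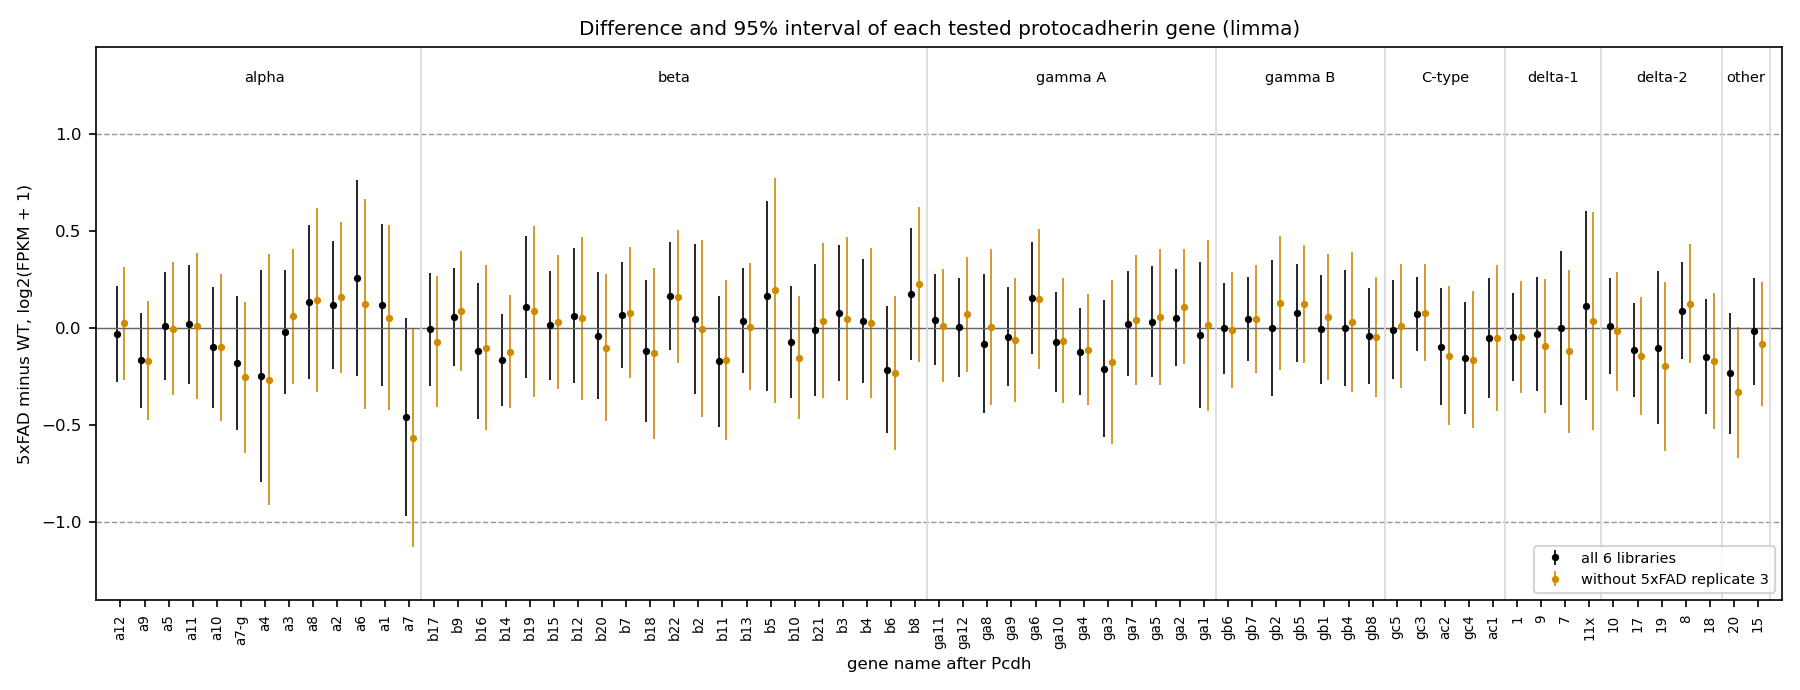
Log2 difference, 5xFAD minus WT, of each of the 69 protocadherin genes tested, by class, on the log2 (FPKM + 1) scale with 95% intervals from limma. Black marks the fit of all 6 CG libraries and orange the fit without the library labelled 5xFAD replicate 3. Dashed lines stand at a 2-fold difference in FPKM + 1. Of the 6-library differences 33 are above 0 and 36 below, and Pcdha7 reaches farthest down (-0.46).

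The members lay on both sides of 0 in each clustered and delta class. With 6 libraries 33 were positive and 36 negative, with a median of -0.0048 beside -0.01 over all genes tested, and without the library labelled 5xFAD replicate 3 these were 36, 33 and 0.0094, beside -0.02. By class, 6 of 13 alpha genes were positive (median -0.02), 12 of 21 beta genes (0.04), 6 of 12 gamma A genes (-0.01), 4 of 7 gamma B genes and 1 of 5 C-type genes (-0.05). The 4 delta-1 genes divided evenly (median -0.01), 2 of the 5 delta-2 genes were positive (-0.10), and Pcdh20 and Pcdh15 were both below 0. In the 5-library fit, 7 alpha genes were positive (0.01), 12 beta genes (0.03), 8 gamma A genes (0.01), 5 gamma B genes (0.05), 2 C-type genes (-0.05), 1 delta-1 gene (-0.07) and 1 delta-2 gene (-0.14), and Pcdh20 and Pcdh15 were again below 0. The median of the 11 non-clustered genes tested was -0.03 with 6 libraries and -0.09 without the library labelled 5xFAD replicate 3, and that of the 58 clustered genes 0.00 and 0.01. The difference between the classes was not tested.

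The genotypes did not overlap for 2 of the 69 genes with 6 libraries, Pcdha9 and Pcdhb14, both lower in 5xFAD. The share of all genes lower without overlap was 2.74%, and that of genes higher without overlap 2.92%, where 0 protocadherins were. Without the library labelled 5xFAD replicate 3, 6 genes were lower without overlap (Pcdh18, Pcdh20, Pcdha7, Pcdha9, Pcdhb10 and Pcdhb14), where 7.5% of all genes were, and 0 were higher, where 10.6% of all genes were. The counts of lower genes were near the background of all genes.

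Summed levels per cluster gave the same picture across genotypes and a larger spread across libraries. The alpha cluster summed to 51.4 ± 4.98 FPKM in WT and 48.6 ± 2.496 FPKM in 5xFAD (SD, n = 3 in each). The beta cluster summed to 82.5 ± 9.26 FPKM in WT and 82.3 ± 7.36 FPKM in 5xFAD, and the gamma cluster to 203 ± 9.19 FPKM and 204 ± 13.6 FPKM. The non-clustered genes summed to 303 ± 20.0 FPKM in WT and 292 ± 17.6 FPKM in 5xFAD. Without the library labelled 5xFAD replicate 3 the 5xFAD sums were 45.7 and 50.02 FPKM for the alpha cluster, 219 and 195 FPKM for the gamma cluster, and 277 and 288 FPKM for the non-clustered genes, which reached 284 FPKM at the lowest in WT. In each case the difference between the means over 3 libraries was smaller than the SD of the WT group.

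Within a genotype the classes moved apart between libraries. The beta cluster summed to 75.8, 93.1 and 78.7 FPKM in WT and 74.5, 89.1 and 83.3 FPKM in 5xFAD, highest in the libraries numbered 2. The gamma A genes summed to 93.7, 94.1 and 85.4 FPKM in WT and 98.3, 85.2 and 86.9 FPKM in 5xFAD, highest in 5xFAD replicate 1. The ratio of the beta to the gamma A sum was 0.808, 0.989 and 0.922 in WT and 0.757, 1.05 and 0.958 in 5xFAD, so it was lowest in replicate 1 of each genotype. Of the 21 beta genes tested, 12 were highest in WT replicate 2 and 5 in 5xFAD replicate 2. The median deviation of the beta genes from their own mean was 0.16 and 0.10 (log2) in these libraries and -0.10 in replicate 1 of each genotype, while that of all genes tested stayed within 0.01 of 0. WT replicate 2 was above the mean for the other classes as well, at 0.22 for delta-1, 0.16 for C-type, 0.15 for alpha, 0.13 for delta-2, 0.07 for gamma A and 0.02 for gamma B genes. In 5xFAD replicate 1 the delta-1 genes were at -0.29 and the gamma A genes at 0.09.

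**Figure D3:**
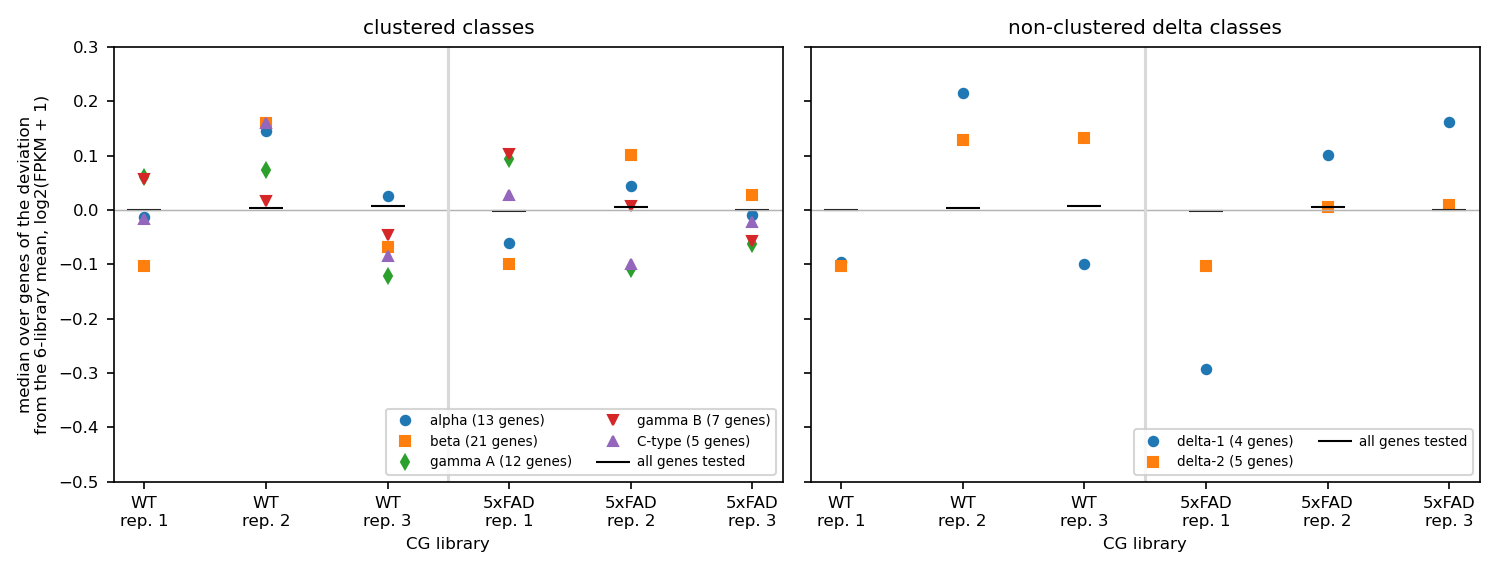
Median log2 deviation of the genes of each clustered and delta protocadherin class from their own mean over the 6 CG libraries, by library, on the log2 (FPKM + 1) scale. All 7 classes are above 0 in WT replicate 2 (0.02 for gamma B to 0.22 for delta-1), 5xFAD replicate 1 holds the beta and delta-1 genes at -0.10 and -0.29 and the gamma A genes at 0.09, and all genes tested lie near 0 in every library.

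Other values moved across the same libraries. The astrocyte markers, summed over 5 genes, stood at 763, 1051 and 879 FPKM in WT and 808, 1044 and 961 FPKM in 5xFAD, highest in the libraries numbered 2. Slc1a2 held most of the sum there (752 FPKM in WT and 720 FPKM in 5xFAD), and Aldh1l1 was highest in replicate 1 of each genotype. The oligodendrocyte precursor sum was also highest in the libraries numbered 2, at 34.0 FPKM in WT and 30.7 FPKM in 5xFAD. Relative depth was 1, 0.794 and 0.985 in WT and 1.01, 0.982 and 1.16 in 5xFAD, lowest in WT replicate 2. The part of cell makeup and depth in this spread was not tested.

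The regulators and partners of protocadherins were read from the same fits, and 0 genes of the 5 lists passed the test in either fit. Of 17 genes of chromatin and promoter choice, 16 were tested. With 6 libraries 8 were positive and in the 5-library fit 9, with a median log2 difference of 0.01 in both fits. Rest, a repressor of neuronal genes, had the smallest p, at 2.18, 1.85 and 2.37 FPKM in WT and 3.22, 2.70 and 2.08 FPKM in 5xFAD, a log2 difference of 0.22 (SE 0.15), and of 0.34 (SE 0.15, limma adjusted p = 0.897) in the 5-library fit. Of the 20 intracellular partners and actin regulators 7 were positive with a median of -0.04, and 6 with a median of -0.06 in the 5-library fit. Marcks, an actin-binding protein acted on by gamma protocadherin signalling, stood at 26.9, 34.7 and 33.8 FPKM in WT and 35.1, 45.5 and 38.6 FPKM in 5xFAD, without overlap and with a log2 difference of 0.31 (SE 0.13), and of 0.33 (SE 0.16) in the 5-library fit, which did not pass the test. Of the 5 genes of protocadherin cleavage 2 were positive in each fit, and Aph1a, with the smallest p in the 6-library fit, differed by 0.11 (SE 0.12) and by 0.15 (SE 0.14) in the 5-library fit. Of the 9 tip-link partners of Pcdh15, 5 were tested, and 1 was positive with 6 libraries and 2 in the 5-library fit. Of the 26 other cadherin superfamily genes tested 9 were positive with a median of -0.03, and 7 with a median of -0.06 in the 5-library fit. Cdh10, with the smallest p of these, was lower without overlap, at 16.9, 19.5 and 16.4 FPKM in WT and 14.9, 15.2 and 15.5 FPKM in 5xFAD.

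Junction intervals were found for non-clustered genes alone. Of the 12 non-clustered genes 5 hosted a listed interval, which is 41.7%, and of the 59 clustered genes 0 did. Among all genes tested for expression 2934 of 14500 (20.2%) hosted one, among genes with a mean of 1 to 100 FPKM 21.8%, and among 33 other cadherin superfamily genes 9 (27.3%), among them Cdh2, Cdh8 and Fat3. A beta gene is a single exon and the alpha and gamma genes share their downstream exons, and interval names were taken as deposited. The table holds an interval only where the 3 libraries of WT or of 5xFAD each stood at 2.03 or higher, so a clustered gene without an interval may have junctions under that limit. The signal was whole reads scaled per library, and the recovered reads numbered 438790, 695539 and 695528 in WT and 191408, 683540 and 659414 in 5xFAD. One read was worth 0.226 to 0.866, most in 5xFAD replicate 1.

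The most abundant protocadherin junction lay in Pcdh17, spanning 366 bases at chr14:84877129-84877494 (mm9). Its signal was 148, 91.6 and 106 in WT and 218, 87.7 and 78.9 in 5xFAD from 2222 reads, and it ranked 197 of 7025 by mean signal. It was highest in 5xFAD replicate 1, the library with the fewest reads, and the groups overlapped, with a log2 difference (log2 of signal + 1) of 0.02 (SE 0.39). A second Pcdh17 interval of 822 bases, chr14:84932681-84933502, stood at 11.2, 15.0 and 7.02 in WT and 1.73, 14.9 and 13.9 in 5xFAD, the lowest value being 2 reads. Over both, Pcdh17 summed to 126 ± 28.5 in WT and 138 ± 70.8 in 5xFAD (SD, n = 3 in each), with 85.1% to 99.2% of it in the first interval.

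The Pcdh7 interval ranked second among the protocadherins, spanning 29108 bases at chr5:58304394-58333501. Its signal was 78.2, 58.3 and 57.8 in WT and 74.5, 60.6 and 50.4 in 5xFAD from 1277 reads, overlapping, with a log2 difference of -0.07 (SE 0.33). The 95% interval of the difference was -0.77 to 0.63 for this junction and -0.81 to 0.86 for the first Pcdh17 junction, both within 2-fold, and those of the other 6 protocadherin junctions reached past 2-fold. The Pcdh10 interval, chr3:45187452-45196796, stood at 10.1, 2.73 and 5.38 in WT and 20.8, 4.52 and 3.35 in 5xFAD from 120 reads. The Pcdh11x interval, chrX:117478394-117478978, stood at 1.497, 3.65 and 4.68 in WT and 3.46, 4.29 and 2.63 in 5xFAD from 74 reads. Both overlapped between genotypes. Pcdh9, close to Pcdh1 in FPKM, had no listed interval, and neither did Pcdh1, although both stood above every protocadherin host gene in FPKM.

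Pcdh15 hosted 3 intervals, none of which passed the test. The interval at chr10:73673111-73693125, of 20015 bases, stood at 17.96, 15.0 and 21.0 in WT and 16.5, 20.8 and 8.84 in 5xFAD from 352 reads. The interval at chr10:73944781-73967553, of 22773 bases, stood at 6.36, 7.29 and 4.44 in WT and 11.3, 7.46 and 13.6 in 5xFAD from 171 reads. Its groups did not overlap, though WT replicate 2 (7.29, 32 reads) and 5xFAD replicate 2 (7.46, 33 reads) were nearly level. The 11.3 in 5xFAD replicate 1 rested on 13 reads. The log2 difference of this interval was 0.73 (SE 0.56, limma adjusted p = 0.918). The interval at chr10:73842077-73859224, of 17148 bases, stood at 0, 1.60 and 1.40 in WT and 4.33, 3.16 and 2.15 in 5xFAD. These were 0, 7 and 6 reads against 5, 14 and 9, and 3 reads in WT replicate 1 would be a signal of 1.12. Its log2 difference was 1.16 (SE 0.57, 95% interval -0.06 to 2.39, limma adjusted p = 0.887), and it fell to 0.72 without WT replicate 1. It reached the listing limit through the 5xFAD group, so a difference in that direction was favoured by its being listed. In the authors' deposited table, the log2 fold change of the last interval was 1.59 with a p of 0.00597 and an adjusted p of 0.112, and that of the interval before it was 0.83 with a p of 0.0166 and an adjusted p of 0.217. Summed over its 3 intervals, Pcdh15 stood at 24.3, 23.9 and 26.9 in WT and 32.0, 31.4 and 24.6 in 5xFAD, 25.0 ± 1.61 against 29.4 ± 4.12 (SD, n = 3 in each), overlapping.

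**Figure D4:**
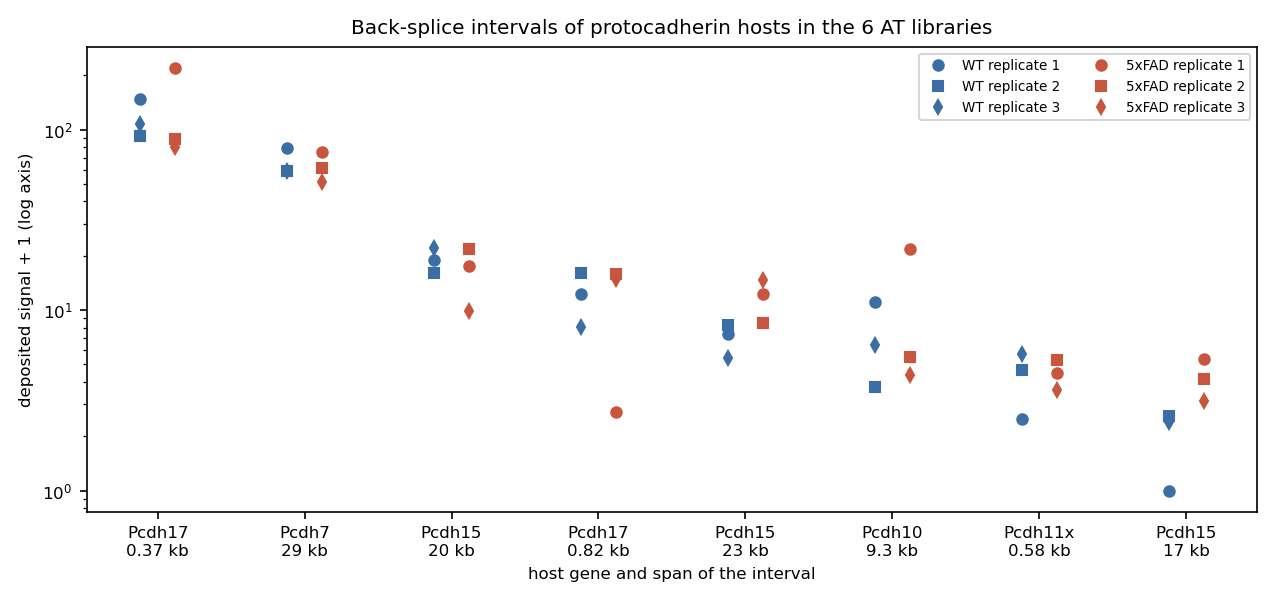
Junction signal of the 8 protocadherin intervals in the 6 AT libraries, on a log axis of signal + 1, with 1 symbol per library. The first Pcdh17 interval (78.9 to 218) and the Pcdh7 interval (50.4 to 78.2) stand above the others, and the genotypes are apart in 2 Pcdh15 intervals only, at signals of 0 to 13.6.

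Of the 8 intervals 0 passed limma's test at an adjusted p of 0.05, where 0 of all 7025 did (0%). At an unadjusted p under 0.05 the count was 0, against 5.68% of all intervals. On the recovered reads, edgeR's quasi-likelihood test and DESeq2 also called 0 of the 8. By the adjusted p of the authors' deposited table, none of the 8 intervals was under 0.05, where 3.76% of all intervals had. The genotypes were apart in 2 intervals, both higher in 5xFAD, where 4.43% of all intervals were higher without overlap. The count lower without overlap was 0, where 6.65% of all intervals were. Of the 2, the Pcdh15 interval at chr10:73842077-73859224 reached the listing limit through the 5xFAD group, which favoured its being apart. The other Pcdh15 interval was parted by 7.29 in WT replicate 2 against 7.46 in 5xFAD replicate 2. The count of 2 is therefore not read as an excess. The other 6 intervals had an adjusted p of 0.935 to 0.989 in the authors' deposited table.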

How the data were processed

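The FPKM values of the CG libraries and the junction signal of the AT libraries were deposited by the authors, with mm9 and DESeq named per the submitters' processing notes (no version given). Names of the aligner and the junction caller were not given in the sources used here. Log2 fold changes, p-values and adjusted p-values per interval are the authors' deposited values. Low AT values showed whole steps: 100% of values came out as whole reads within 0.01, so the deposited signal is reads divided by a factor per library. CG totals were 385214 to 412157 FPKM.

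Members are all genes named Pcdh. Members and gene lists were chosen with earlier results of these data known. All genes with a mean of at least 0.5 were fitted on log2(value + 1) with limma 3.58.1 (mean trend, R 4.3.3), two-sided, with Benjamini-Hochberg adjustment over the whole table. edgeR 4.0.16 and DESeq2 1.42.0 were run on recovered AT reads as alternatives. Named with values were the 3 highest genes of each class, the 5 smallest p in either fit, hosts of intervals, and of each list up to 4 genes with the smallest p. Libraries of each type were compared in pairs before averaging: none were identical, and AT pairs had a chi-square per degree of freedom of at least 5.85. Scripts were tested on simulated data. RefSeq (GRCm38.p6) matched 70 of 71 symbols and Pcdha7-g by a synonym. Its coordinates served for the promoter windows and for the order, ends, overlaps and chromosomes of genes. They were not set against the junction intervals, which are on mm9.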

Additional observations from a re-analysis of the deposited data

How the results depend on the processing

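The count of protocadherin genes passing the test stayed at 0 under all 13 alternatives for 6 CG libraries, all 9 without the library labelled 5xFAD replicate 3, and all 15 for the AT intervals. These covered other pseudocounts, no filter, each library left out, the replicate block, median scaling, limma without the mean trend, array quality weights and, for AT, edgeR and DESeq2. The lowest limma adjusted p of a member was 0.399, 0.336 and 0.716 in the 3 comparisons. At an unadjusted p under 0.05 the counts reached 9 of 69 with array quality weights, where 11.3% of all genes did, 3 without WT replicate 1, where 8.88% of all genes did, and 1 of 8 without WT replicate 2, where 6.9% of all intervals did. Leaving out 1 library, the median difference ranged from -0.04 to 0.02 for clustered and -0.09 to 0.03 for non-clustered genes with 6 libraries, and from -0.03 to 0.04 and -0.16 to -0.02 without the library labelled 5xFAD replicate 3.

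Over the whole table the count called with 6 libraries was 1, and 174 without the library labelled 5xFAD replicate 3. From there it was 106 without WT replicate 2 and 84 without WT replicate 3. Leaving out WT replicate 1 instead raised the share of genes at an unadjusted limma p under 0.05, to 8.88% from 5.91%. Of the AT intervals 0 passed, 2 did with array quality weights and 1 with DESeq2. At an unadjusted p under 0.05 edgeR had 202 and DESeq2 235 of all intervals. The cause was not tested.

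Deviations from the group mean correlated between same-numbered libraries at 0.415, 0.279 and 0.0398 in CG and at 0.0676, 0.0884 and 0.0401 in AT. In CG, WT replicate 1 with 5xFAD replicate 2 gave -0.344 and WT replicate 2 with 5xFAD replicate 1 gave -0.358. Other CG pairs of unlike number lay at -0.157 to 0.153. The labels do not say that a number marks a shared animal or batch, so the numbers were not taken as pairs. With the replicate block 0 members passed in each comparison, and the whole-table count was 1 with 6 libraries and 201 without the library labelled 5xFAD replicate 3. The deviations of WT replicate 3 of the CG libraries correlated best with those of 5xFAD replicate 2 (0.153). In log2 level itself, WT replicate 3 correlated best with the library labelled 5xFAD replicate 3 (0.990).

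The rarest of the 8 intervals rested on 41 reads.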
